A study of Mus musculus with 35 samples.

Results

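Timp1 and 8 genes of the matrix metalloproteinase family (Mmp2, Mmp3, Mmp7, Mmp9, Mmp10, Mmp12, Mmp13 and Mmp14) were followed in the colon of 35 mice. They were taken by symbol from 19908 genes measured, each was represented by 1 probe set, and all 9 were found. Colon RNA of each mouse was measured on its own Affymetrix Mouse Gene 1.0 ST array. The mice, all of the C57BL/6N strain, formed 7 groups of 5. Conventional mice were Reg3a-transgenic (TG) or wild-type (WT), and each genotype was either given 3% dextran sodium sulfate (DSS) for 5 days, followed by plain water, or left untreated with plain water. Reg3a encodes a secreted lectin of the gut with bactericidal activity. The sources used here name neither the promoter nor the species of origin of the transgene. A further 3 groups were axenic mice, raised germ-free, that received the same DSS course. They carried intestinal flora from transgenic donors, carried flora from wild-type donors, both transplanted 3 weeks ahead of DSS, or served as controls. The label of the controls places DSS ahead of a microbial transfer, and the sources used here do not settle whether or when they received flora. Colons were collected on day 12. For conventional mice a treatment label mentions a microbial transfer too, against the sample titles and design text, which were followed. Axenic mice are named by the end of their titles, such as CT517 for a control.

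Matrix metalloproteinases are zinc-dependent endopeptidases that cut collagens, gelatin, laminin and other components of the extracellular matrix, as well as cytokines and receptors. They are made as inactive proenzymes and are held in check by tissue inhibitors, of which Timp1 is made by many cells and is induced by inflammatory cytokines. DSS damages the colon epithelium and causes colitis followed by repair, a setting in which stromal cells, macrophages, neutrophils and epithelial cells all release enzymes of this family. Members are named after their substrates or cells: stromelysins (Mmp3, Mmp10), collagenase (Mmp13), gelatinases (Mmp2, Mmp9), matrilysin (Mmp7), macrophage elastase (Mmp12) and a membrane-anchored enzyme (Mmp14).

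Of the 9 genes, 5 are neighbours. In the GRCm38.p6 build, Mmp13 (chr9:7272514-7283333), Mmp12 (chr9:7344397-7360461), Mmp3 (chr9:7445822-7455975), Mmp10 (chr9:7502342-7510242) and Mmp7 (chr9:7692090-7699585) lie within 427.1 kb that hold 10 protein-coding genes, all of them metalloproteinases. Timp1 lies at chrX:20870166-20874737, Mmp2 at chr8:92827290-92853421, Mmp9 at chr2:164940326-164955850 and Mmp14 at chr14:54431598-54442456. RefSeq promoter windows of the same build, running from 250 bases before to 50 bases after a transcription start, matched 7 of the 9 genes, with 9 windows. The others were Mmp2 and Mmp9. The windows were searched for TGANTCA, which covers the classic binding letters of the AP-1 factors (Fos and Jun dimers) and reads the same on both strands. It was found in 5 of the 9 windows, those of all 5 chromosome 9 genes, against 2565 of 32851 RefSeq windows (7.81%). The 120 bases before each of these starts are shown because they set neighbouring genes with unlike DSS values side by side. All lie on the plus strand and read 5′ to 3′, and capitals mark the match.
Mmp13, chr9:7272394-7272513: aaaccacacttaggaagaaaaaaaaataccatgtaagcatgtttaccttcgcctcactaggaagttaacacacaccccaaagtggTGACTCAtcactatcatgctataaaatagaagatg
Mmp12 second start, chr9:7347254-7347373: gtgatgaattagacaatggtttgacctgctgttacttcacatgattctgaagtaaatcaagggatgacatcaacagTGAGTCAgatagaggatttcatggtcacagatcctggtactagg
Mmp3, chr9:7445702-7445821: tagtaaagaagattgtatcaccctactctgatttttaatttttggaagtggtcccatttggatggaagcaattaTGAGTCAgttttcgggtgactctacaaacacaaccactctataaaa
Mmp10, chr9:7502222-7502341: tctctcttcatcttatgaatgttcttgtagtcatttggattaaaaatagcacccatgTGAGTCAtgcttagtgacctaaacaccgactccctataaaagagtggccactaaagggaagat
Mmp7, chr9:7691970-7692089: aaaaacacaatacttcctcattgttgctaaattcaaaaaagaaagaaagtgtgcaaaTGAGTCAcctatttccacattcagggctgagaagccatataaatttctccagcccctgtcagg
The first base of the match lay at -35 in Mmp13, -44 in Mmp12, -46 in Mmp3, and -63 in Mmp10 and Mmp7, counted from the start. The first start of Mmp12, the second of Mmp7, and the windows of Timp1 and Mmp14 held no match. A match describes letters only and shows no binding.

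All values below are log2 signal, so that 1 unit is a 2-fold difference, and SE is the moderated standard error of a difference. A gene was called where the adjusted p of limma was under 0.05. Array medians ranged from 6.65 to 6.95 and the SD over an array from 1.64 to 2.03. That spread averaged 1.83 in axenic mice with TG flora, 1.96 with WT flora and 1.73 in the axenic controls. The series title names epithelial cells and the design text colon sections. The mean of 10 smooth muscle markers was 9.45 to 11.12 per mouse and that of 10 epithelial markers 10.89 to 12.10, so both tissues were present in every sample. In whole tissue, fewer cells of a type and less RNA per cell cannot be told apart. Over the 7 groups, all 9 genes passed the moderated F test (adjusted p 7.49e-05 to 0.0189), as did 54.2% of all genes.

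DSS in wild-type mice was set against no treatment to ask which matrix enzymes changed with colitis. Timp1, both stromelysins and the collagenase Mmp13 rose, between 5.25-fold (Mmp10) and 9.79-fold (Mmp3). These 4 were called of 9, against 5.13% of all genes, and 3% of all genes were called higher. The values of all 9 genes were higher with DSS, with a median difference of 1.30 against -0.03 over all genes. In 5 of the 9, every DSS-treated mouse lay above every untreated mouse, against 3.2% of all genes. The 9 genes were chosen with earlier results of these data known, so such shares, here and below, do not test the family.

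Timp1, the secreted inhibitor, read 6.91, 7.58, 8.70, 8.99 and 10.43 in DSS WT mice, against 5.54, 5.56, 5.72, 5.80 and 5.91 in untreated WT mice. The groups did not overlap, and the DSS-treated mice spread over an 11.5-fold range while untreated mice stayed within 1.29-fold. The difference was 2.82 (SE 0.52, 7.05-fold, adjusted p = 0.0124).

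Mmp3, stromelysin-1, which cuts many matrix proteins and activates other proenzymes, read 6.53, 7.39, 9.06, 9.10 and 11.26 in DSS WT mice, against 5.27, 5.27, 5.37, 5.46 and 5.52 in untreated WT mice. Mouse 55 was the highest and mice 56 and 53 the lowest. The difference of 3.29 (SE 0.69, adjusted p = 0.0219) was the largest of the 9. Mmp10, stromelysin-2, known from epithelial cells at wound edges, read 7.498, 8.12, 9.01, 9.93 and 10.87 in DSS WT mice, against 6.37, 6.46, 6.67, 6.71 and 7.26 in untreated WT mice. Its difference was 2.39 (SE 0.53, adjusted p = 0.0283), and again the groups did not overlap.

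Mmp13, the main interstitial collagenase of rodents, read 7.42, 7.56, 8.91, 9.67 and 11.42 in DSS WT mice, against 5.48, 5.89, 5.99, 6.09 and 6.29 in untreated WT mice. Every treated mouse lay more than 1 unit above the highest untreated one. The difference was 3.05 (SE 0.64, 8.27-fold, adjusted p = 0.0216).

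The other 5 genes did not pass. Mmp7, the matrilysin that activates intestinal defensins in mice, averaged 7.58 ± 0.99 in DSS WT and 6.32 ± 0.20 in untreated WT mice (SD, n = 5 each), a difference of 1.25 (SE 0.39, adjusted p = 0.103), with no overlap between groups. Mouse 65 read 9.30 and the other 4 treated mice 6.73 to 7.33, and without mouse 65 the difference of Mmp7 was 0.82 and passed (adjusted p = 0.0225). Mmp9, the gelatinase stored in neutrophil granules, averaged 7.18 ± 1.07 in DSS WT and 5.87 ± 0.19 in untreated WT mice, a difference of 1.30 (SE 0.42, adjusted p = 0.113). Differences were smaller for Mmp2 (0.56), the gelatinase of stromal cells, for Mmp14 (0.51), the membrane enzyme that activates it, and for Mmp12 (0.21), with adjusted p from 0.164 to 0.759. Mmp12 thus had the smallest value of the 9 although it lies between Mmp13 and Mmp3 on chromosome 9.

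Markers of inflammatory and stromal cells moved with these genes. Of 10 neutrophil markers 6 rose, and the list mean ranged from 6.70 to 9.04 in DSS WT mice and from 6.18 to 6.52 in untreated WT mice. Macrophage markers rose in 4 of 10 and fibroblast markers in 2 of 10, while smooth muscle markers were called by limma in 0 of 10 (4 at an unadjusted p under 0.05) and the epithelial list in 1 of 10 (Cdx2, 1.1). Hox genes of the distal gut fell in 5 of 8, and their mean was 6.20 to 6.57 in DSS WT mice against 6.77 to 7.76 in untreated WT mice, so the groups did not overlap. With that mean as a covariate 0 of the 9 genes were called, while the count over all genes fell from 1022 to 9. The differences were then 2.55 for Timp1 (adjusted p = 0.171), 2.79 for Mmp3 (0.223), 0.97 for Mmp10 (0.512) and 2.08 for Mmp13 (0.292). With the smooth muscle mean as a covariate 310 of all genes were called, and 1 of the 9, Timp1 (2.04, adjusted p = 0.0361). The calls of Mmp3 (2.31, adjusted p = 0.0780), Mmp10 (1.87, 0.156) and Mmp13 (2.30, 0.109) were lost. The smooth muscle mean was 10.18 to 11.11 in DSS WT and 10.62 to 10.96 in untreated WT mice. Because the Hox level separated the same groups of mice, it and the treatment cannot be told apart in the Hox fit. The part of the neutrophil, macrophage and fibroblast markers in the results was not tested.

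The number of called genes also rested on single mice. It was 1 without untreated WT mouse 7, 8, 10 or 11, and 2 without DSS WT mouse 65 (Timp1 and Mmp7) or 52, with the adjusted p of the lost calls between 0.0509 and 0.0777. It was 6 without DSS WT mouse 56, when Mmp9 (1.59) and Mmp14 (0.67) passed as well. Timp1 was called without any 1 of the 10 mice. The removals that lowered the number also lowered the count over all genes, from 1022. That count was 424, 447, 489 and 605 without untreated WT mouse 7, 8, 10 and 11, respectively. Without DSS WT mouse 65 and 52 it was 556 and 628. The loss of calls was therefore not limited to the genes followed here.

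**Figure D1:**
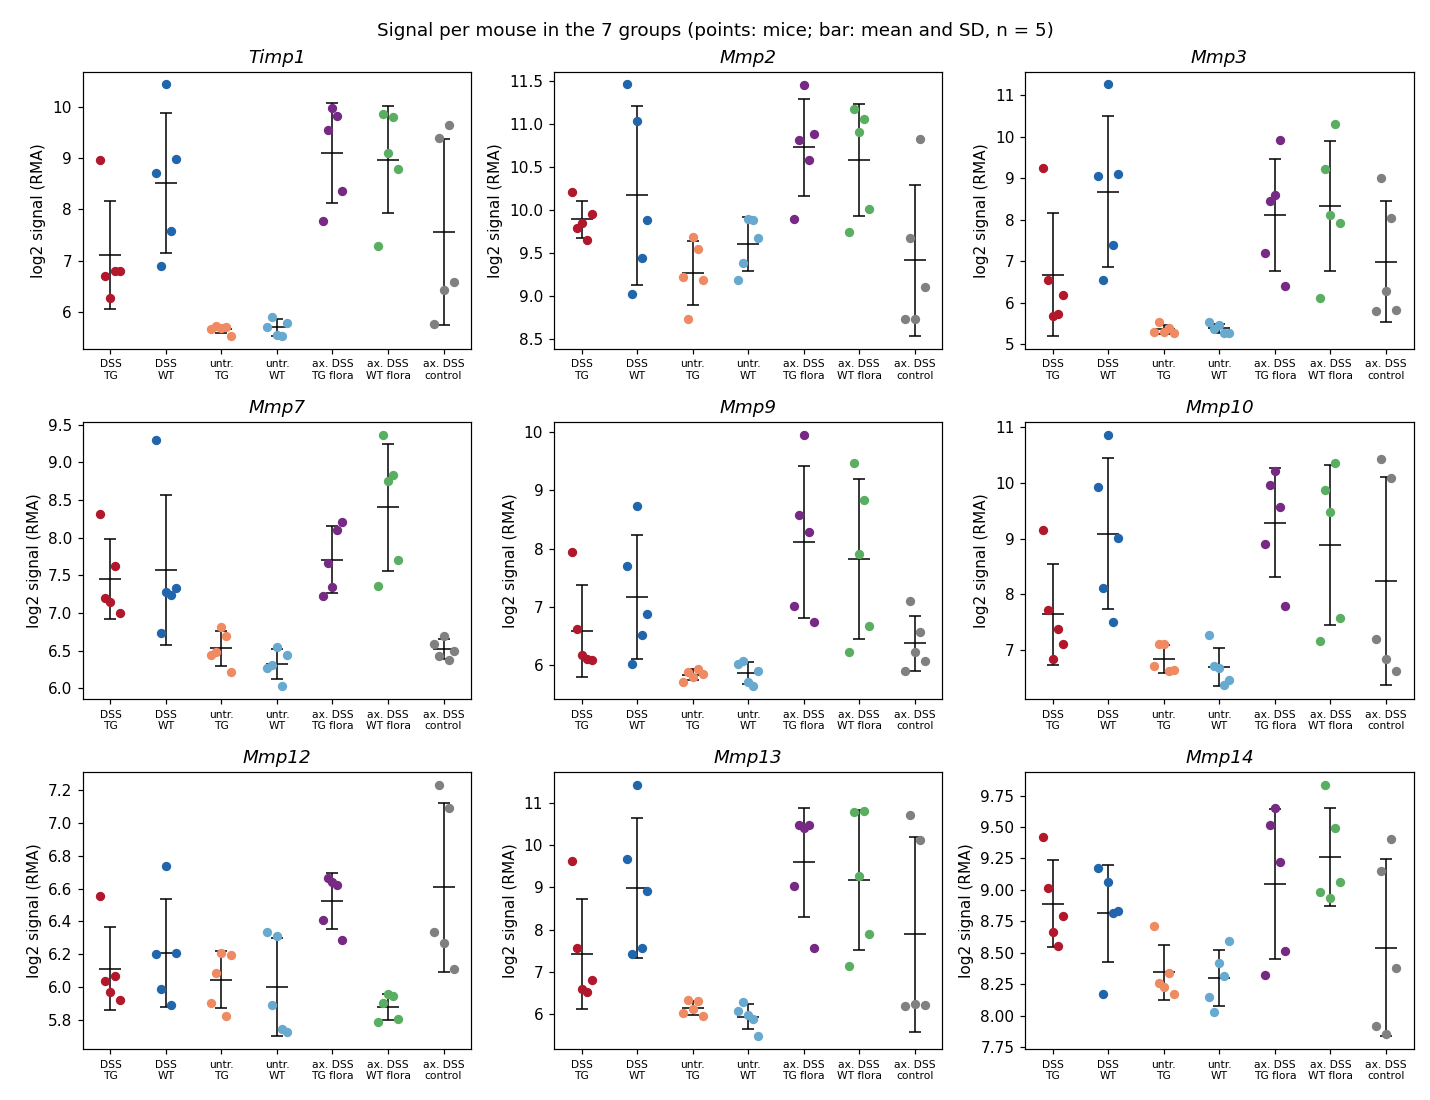
Log2 signal of the 9 genes in each mouse, 1 panel per gene, with the 7 groups on the horizontal axis (untr., untreated; ax., axenic). Points are mice, and bars give the mean and SD (n = 5). For Timp1, Mmp3, Mmp10 and Mmp13 the DSS-treated wild-type mice lie above all untreated wild-type mice, the DSS-treated transgenic group has mouse 49 at its top, and the axenic controls split into 2 high and 3 low mice.

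In transgenic mice, Mmp7 was the 1 gene of the 9 that passed in the same comparison. Mmp7 rose 1.90-fold, a call in 1 of 9 genes where 4.55% of all genes were called and 3.46% were called higher. The values of all 9 genes were again above the untreated mean, with a median difference of 0.80 against -0.02 over all genes. In 5 genes (Timp1, Mmp3, Mmp7, Mmp9 and Mmp13) all DSS TG mice lay above all untreated TG mice, against 5.4% of all genes.

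Mmp7 read 7.001, 7.14, 7.20, 7.62 and 8.31 in DSS TG mice, against 6.22, 6.45, 6.49, 6.70 and 6.82 in untreated TG mice. Even the lowest treated mouse was above every untreated one, and the difference was 0.92 (SE 0.22, adjusted p = 0.0431). This call was lost without any of the 5 untreated TG mice and without DSS TG mouse 48 or 46, with adjusted p from 0.0584 to 0.105 and differences from 0.84 to 0.99.

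Timp1 read 6.29, 6.70, 6.80, 6.80 and 8.95 in DSS TG mice, against 5.54, 5.67, 5.70, 5.71 and 5.73 in untreated TG mice. Mouse 49 stood 2.16 units above the next mouse. The difference was 1.44 (SE 0.40, adjusted p = 0.0615). Without mouse 49 it was 0.98 and passed (adjusted p = 0.0041), with the other 4 DSS TG mice between 6.29 and 6.80.

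Mmp3 read 5.68, 5.72, 6.18, 6.54 and 9.25 in DSS TG mice, against 5.27 to 5.54 in untreated TG mice. Mouse 49 was again far above the others, and the difference of 1.32 (SE 0.56, adjusted p = 0.163) became 0.67 without it. Mmp13 read 6.54, 6.60, 6.81, 7.57 and 9.61 in DSS TG mice, against 5.97 to 6.34 in untreated TG mice (1.27, SE 0.49, adjusted p = 0.135), and 0.72 without mouse 49. For Mmp10 the difference was 0.80 (adjusted p = 0.177), for Mmp9 0.74 (0.151), for Mmp2 0.62 (0.0607), for Mmp14 0.55 (0.0740) and for Mmp12 0.07 (0.743). Without mouse 49 the values were 0.43 for Mmp10 and 0.40 for Mmp9, and that of Mmp12 was -0.04.

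Mouse 49 was the highest of the DSS TG group for all 9 genes. It was also the highest for the neutrophil list, at 8.49 against 6.33 to 6.57 in the other 4 DSS TG mice, and for the macrophage list, at 8.81 against 7.72 to 7.95. Neutrophil markers were called by limma in 0 of 10 (2 at an unadjusted p under 0.05), macrophage markers rose in 3 and fell in 1 of 10, and fibroblast markers rose in 2 of 10. Distal Hox markers were called in 0 of 8 (1 at an unadjusted p under 0.05), with list means of 6.69 to 6.87 in DSS TG mice and 6.43 to 7.57 in untreated TG mice.

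Transgenic and wild-type mice were compared directly, without and with DSS. Among untreated mice 0 of 9 genes were called by limma, where 0.0753% of all genes were, and 0 had an unadjusted p under 0.05 (5% of all genes). In none of the 9 did the groups separate without overlap, against 1.12% of all genes. Differences ran from -0.33 (Mmp2) to 0.21 (Mmp7), each within 2 SE of 0.

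With DSS, 8 of the 9 values were lower in TG than in WT mice, with a median of -0.59. None passed (adjusted p from 0.917), as 0.00502% of all genes did, while 2 had an unadjusted p under 0.05 (Mmp3 and Mmp10), as did 5.17% of all genes. Timp1 averaged 7.11 ± 1.05 in DSS TG and 8.52 ± 1.36 in DSS WT mice, a difference of -1.41 (SE 0.66). Mmp3 averaged 6.67 ± 1.48 in DSS TG and 8.67 ± 1.82 in DSS WT mice (-1.995, SE 0.90). Mmp10 averaged 7.64 ± 0.90 in DSS TG and 9.09 ± 1.36 in DSS WT mice (-1.45, SE 0.63), and Mmp13 averaged 7.42 ± 1.29 in DSS TG and 8.99 ± 1.65 in DSS WT mice (-1.57, SE 0.80). The ranges of both genotypes overlapped for each of the 9 genes (1.57% of all genes did not overlap), for Timp1 through mouse 49 of the TG group alone. With the distal Hox mean as a covariate the values were -0.77 for Timp1 and -0.78 for Mmp3. They were above 0 for Mmp10 (0.31) and Mmp13 (0.26), so the direction for these last genes depended on that choice. The Hox mean was 6.688 to 6.87 in DSS TG and 6.199 to 6.575 in DSS WT mice, without overlap. It and the genotype therefore cannot be told apart in this fit. With the smooth muscle mean as a covariate the values were -0.38 for Timp1, -0.66 for Mmp3, -0.73 for Mmp10 and -0.54 for Mmp13. Smooth muscle markers had a median difference of 0.27, 0 of 10 called by limma and 4 with an unadjusted p under 0.05, and the neutrophil list a median of -0.60. The part of the neutrophil markers in the result was not tested. Without DSS WT mouse 55 the difference was -0.94 for Timp1 and -0.96 for Mmp13.

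Whether DSS acted differently in the genotypes was tested as an interaction over these 20 arrays, the DSS difference in TG mice minus that in WT mice. Values were negative for 7 of 9 genes, with a median of -0.56. They were -1.38 for Timp1 (SE 0.71, adjusted p = 0.722), -1.97 for Mmp3 (SE 0.96, adjusted p = 0.686), -1.59 for Mmp10 (SE 0.69, adjusted p = 0.578) and -1.78 for Mmp13 (SE 0.87, adjusted p = 0.686). None of the 9 was called, against 0.156% of all genes, and 1 (Mmp10) had an unadjusted p under 0.05, as did 7.42% of all genes. Without DSS WT mouse 55 the interaction was -0.90 for Timp1 and -1.17 for Mmp13. Calls made in WT mice and missed in TG mice are therefore not shown to be a difference between the genotypes.

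**Figure D2:**
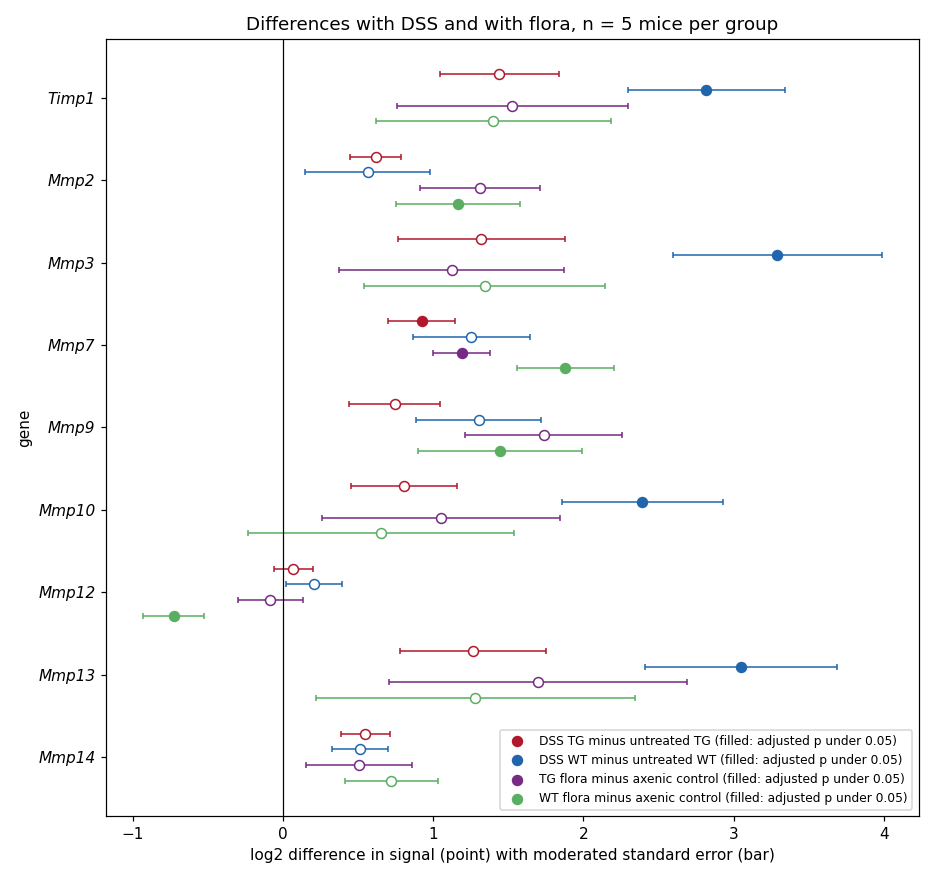
Log2 differences of the 9 genes for 4 comparisons with 5 mice per group, with the moderated standard error as bars and filled points where the adjusted p was under 0.05. DSS in wild-type mice gives filled points for Timp1, Mmp3, Mmp10 and Mmp13, whereas Mmp7 is filled for DSS in transgenic mice and for both kinds of flora.

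Axenic recipients given DSS allowed the flora of both donors to be compared. The only gene of the 9 whose groups did not overlap was Mmp12, macrophage elastase. It read 6.29, 6.41, 6.62, 6.64 and 6.66 with TG flora, against 5.79, 5.80, 5.91, 5.94 and 5.96 with WT flora. Its difference of 0.64 (SE 0.10) was 1.56-fold and did not pass (adjusted p = 0.0695). No gene was called, among the 9 or among all genes (0%), and 2.98% of all genes were higher without overlap. Mmp12 was the 1 gene of the 9 with an unadjusted p under 0.05, below the share of all genes (34.4%). The next largest difference was that of Mmp7, which averaged 7.71 ± 0.44 with TG flora and 8.40 ± 0.84 with WT flora (-0.69, SE 0.36, adjusted p = 0.184). Without mouse WT793 the value of Mmp7 was -0.45. The other 7 ran from -0.22 to 0.42. Marker lists of tissue layers differed between the floras. The smooth muscle mean was 9.45 to 10.42 with TG flora and 10.37 to 11.10 with WT flora, with a median difference of -0.74 over its markers, of which 9 of 10 had an unadjusted p under 0.05 and 0 were called. The epithelial mean was 11.27 to 11.80 with TG flora and 11.67 to 12.10 with WT flora, with a median difference of -0.29 and 7 of 10 at an unadjusted p under 0.05. With the smooth muscle mean as a covariate the difference of Mmp12 was 0.78 (adjusted p = 0.9999) and that of Mmp7 was -0.67. Mmp12 was dim, with a mean of 6.20 over all arrays against a low signal cutoff of 6.41. Other metalloproteinases below that cutoff in both floras differed by less. Higher with TG flora were Mmp21 (0.43), Mmp20 (0.26), Mmp27 (0.26), Mmp1a (0.16), Mmp11 (0.09), Mmp16 (0.08) and Mmp1b (0.04). Lower were Mmp17 (-0.22) and Mmp25 (-0.05). Array spread was 1.665 to 1.943 with TG flora and 1.896 to 2.03 with WT flora. The part of low signal in the result was not tested.

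Each flora was also set against the axenic controls, which serve as the shared baseline of both comparisons. With TG flora 1 gene of 9 was called, Mmp7, where 0.337% of all genes were (0.327% higher). It read 7.22, 7.35, 7.66, 8.11 and 8.21 with TG flora, against 6.38, 6.43, 6.50, 6.59 and 6.70 in controls. All recipients lay above all controls, against 1.7% of all genes, and the difference was 1.19 (SE 0.19, 2.28-fold, adjusted p = 0.0236). Smooth muscle markers had a median difference of -0.57 here, with 7 of 10 at an unadjusted p under 0.05 and 0 called by limma. With their mean as a covariate the difference of Mmp7 was 1.35 (adjusted p = 0.00688), and with the distal Hox mean it was 1.12 and was not called (adjusted p = 0.151). The call of Mmp7 was also lost without mouse TG749, TG632 or TG446 of the recipients or CT677, CT517, CT465 or CT093 of the controls, with adjusted p from 0.0519 to 0.0780.

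With WT flora Mmp7 read 7.36, 7.70, 8.75, 8.83 and 9.37, against the same controls, a difference of 1.88 (SE 0.32, 3.68-fold, adjusted p = 0.000948). Here 4 of 9 genes were called, which is below the share of all genes called (67.3%, with 32.1% higher and 35.2% lower). Mmp7 lay above all controls in every recipient, as 20.1% of all genes did. The array spread did not overlap in this comparison, at 1.90 to 2.03 with WT flora and 1.64 to 1.78 in controls. After quantile normalization, which gives the arrays the same spread, 6637 of 19908 genes were called instead of 13401. Of the 9 genes, 2 were then called instead of 4. The part of the spread in the result was not tested further. Mmp7 was called in all 18 alternatives tried for this comparison.

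The gelatinases also rose with WT flora. Mmp2 read 9.75, 10.01, 10.91, 11.06 and 11.17 with WT flora, against 8.73, 8.73, 9.11, 9.67 and 10.83 in controls (1.16, SE 0.41, adjusted p = 0.0274). Mmp9 read 6.24, 6.68, 7.91, 8.83 and 9.46 with WT flora, against 5.91, 6.08, 6.24, 6.57 and 7.11 in controls (1.44, SE 0.55, adjusted p = 0.0355). Groups overlapped for both genes, and both calls were lost without mouse WT793, WT639 or WT597 of the recipients or CT677, CT465 or CT093 of the controls, with adjusted p from 0.0555 to 0.0883. With TG flora the values were 1.31 for Mmp2 and 1.74 for Mmp9, and neither passed (adjusted p = 0.153 for each).

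Mmp12 was the 1 member that fell with WT flora, by 0.73 (SE 0.20, adjusted p = 0.00927). Its values with WT flora lay below all 5 controls, as did 24.6% of all genes, and the controls read 6.11, 6.27, 6.34, 7.09 and 7.23. With TG flora its difference from controls was -0.08 (adjusted p = 0.831). After quantile normalization the WT flora difference was -0.53 and was no longer called (adjusted p = 0.108), as was that of Mmp2 (0.51, adjusted p = 0.366).

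Timp1, Mmp3, Mmp10 and Mmp13, which rose with DSS in conventional WT mice, passed with neither flora. The axenic controls themselves were split for these genes. Mmp13 read 7.56 to 10.48 with TG flora and 7.15 to 10.80 with WT flora, against 6.19, 6.22, 6.24, 10.11 and 10.70 in controls. Timp1 read 7.77 to 9.96 with TG flora and 7.29 to 9.86 with WT flora, against 5.78, 6.44, 6.59, 9.38 and 9.64 in controls. The high pair of controls was mice CT517 and CT229 each time, for these 2 genes within the range of mice with WT flora. For Mmp13, CT517 lay above all mice with TG flora. For Mmp10 it read 10.44, above the highest mouse with TG flora (10.22) and with WT flora (10.36). CT517 and CT229 held the highest 2 control values for 8 of the 9 genes, and the exception was Mmp7, for which they held the lowest 2 (6.43 and 6.38). Their neutrophil lists read 8.04 and 7.17, against 6.44 to 6.63 in the other 3 controls, and their macrophage lists 8.42 and 8.69, against 7.26 to 7.81. Without mouse CT229 the WT flora difference of Timp1 was 1.92 and passed (adjusted p = 0.0366), as did Mmp14 (0.94).

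**Figure D3:**
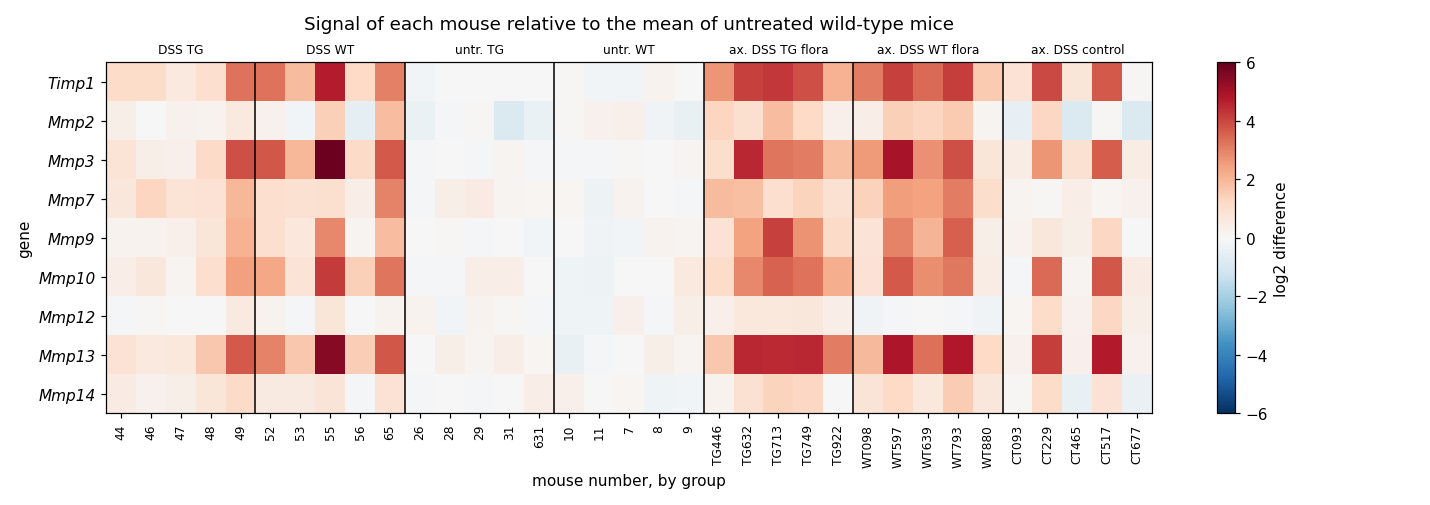
Log2 difference of each mouse from the mean of untreated wild-type mice, with genes as rows and mice as columns sorted by group. Timp1, Mmp3, Mmp10 and Mmp13 are dark in the same columns, among them mouse 49, mouse 55 and the axenic controls CT229 and CT517, in which Mmp7 is pale.

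Ordered by mean, the untreated groups were the lowest 2 of the 7 for Timp1, Mmp3, Mmp9, Mmp10, Mmp13 and Mmp14. The highest mean belonged to axenic mice with TG flora for Timp1 (9.09 ± 0.97), Mmp2 (10.73 ± 0.56), Mmp9 (8.12 ± 1.30), Mmp10 (9.29 ± 0.98) and Mmp13 (9.59 ± 1.29). Axenic mice with WT flora were highest for Mmp7 (8.40 ± 0.84) and Mmp14 (9.26 ± 0.39), DSS WT mice for Mmp3 (8.67 ± 1.82) and axenic controls for Mmp12 (6.61 ± 0.52). Most neighbours in these orders did not differ beyond their spread. Adjacent means lay apart by more than the SD of both groups only for Timp1 between DSS TG and untreated WT mice (1.40), for Mmp7 between DSS TG and untreated TG mice (0.92) and between axenic controls and untreated WT mice (0.20), and for Mmp9 between axenic controls and untreated WT mice (0.51).

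Among mice of the same group, most of these genes went up and down together. After each group mean was subtracted, Pearson r over the 35 mice was 0.97 between Mmp10 and Mmp13, 0.93 between Timp1 and Mmp13, 0.93 between Mmp3 and Mmp13, and 0.92 between Timp1 and Mmp3. Mmp7 stood apart, with r from 0.14 (Mmp12) to 0.55 (Mmp2). For Timp1, Mmp3, Mmp10 and Mmp13 the SD within a group was 0.90 to 2.30 with DSS and 0.08 to 0.35 without. Their r therefore rests mainly on the DSS-treated mice and says little about untreated ones. These correlations describe the same 35 arrays, whose tissue composition is shared by all genes, and no test was made.

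**Figure D4:**
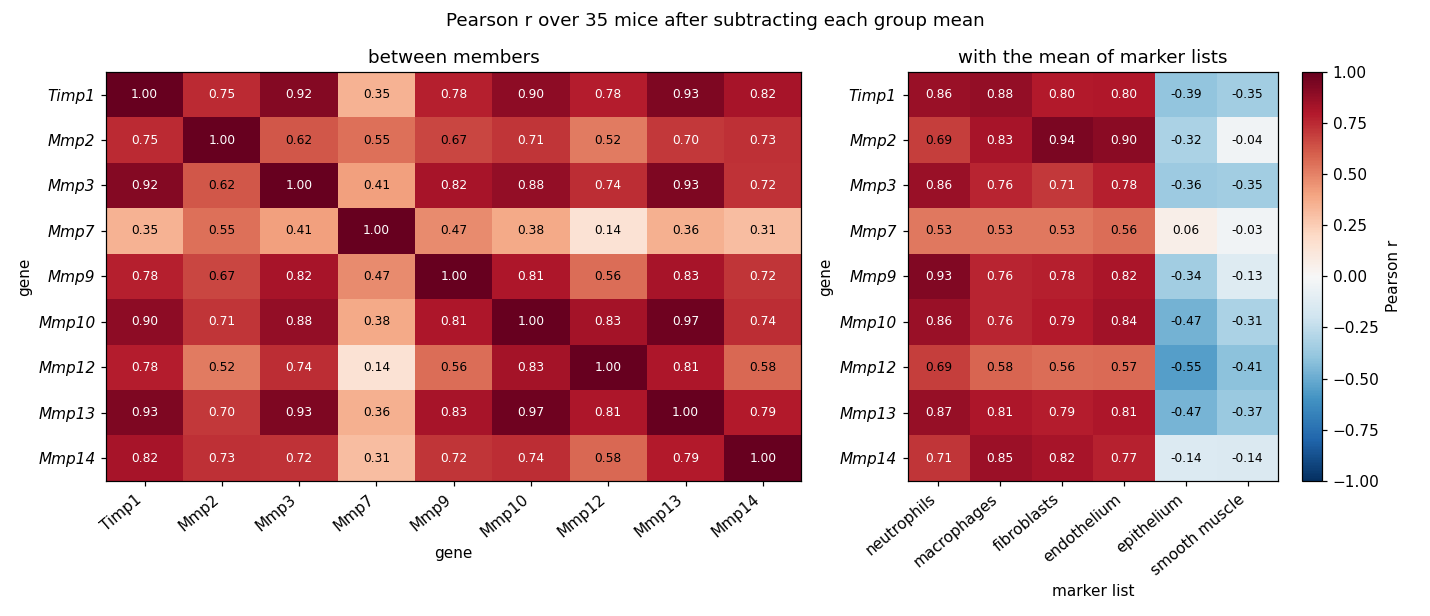
Pearson r over 35 mice after subtraction of each group mean, between the 9 genes (left) and between each gene and the mean of 6 marker lists (right). Mmp13 pairs with Mmp10 at 0.97 and Mmp2 with fibroblast markers at 0.94, while the row of Mmp7 holds the lowest values among the genes.

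The genes most like each member by this measure differed by role. For Mmp9 they were Cxcr2, a chemokine receptor of neutrophils (r = 0.97), Trem1, a receptor of neutrophils and monocytes (0.95), and the glucose transporter Slc2a3 (0.95). For Mmp2 they were Igfbp7 (0.96), the matrix proteoglycan gene Bgn (0.94) and the mesenchymal filament gene Vim (0.93). Cemip, whose product takes part in hyaluronan breakdown, was among the closest for Mmp10 (0.96), Mmp13 (0.97) and Mmp12 (0.81). Timp1 was closest to Smim3 (0.95) and to Lox (0.93), which encodes a collagen cross-linking enzyme. Mmp3 had the neutrophil chemokine gene Cxcl5 (0.90) after Mmp13 and Timp1, and Mmp10 had the acute phase gene Saa3 (0.91). Mmp14 was closest to Map4k4 (0.90), Rab8b (0.90) and the secreted BMP antagonist gene Grem1 (0.90). Mmp12, after Mmp10 (0.835), was closest to Epgn (0.83), a ligand of the EGF receptor. Mmp7 had no partner above 0.74, with Grb10 (0.74), Gbp9 (0.72) and Itm2a (0.70) the closest.

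Against marker lists, Mmp9 followed the neutrophil list most (r = 0.93), Mmp2 the fibroblast list (0.94), and Timp1 and Mmp14 the macrophage list (0.88 and 0.85). Other lists came close, with 0.86 for Timp1 and the neutrophil list, 0.82 for Mmp14 and fibroblasts, and 0.90 for Mmp2 and endothelium. The neutrophil list also had r of 0.865 with Mmp3, 0.86 with Mmp10 and 0.87 with Mmp13. With the epithelial list r ran from -0.55 (Mmp12) to 0.06 (Mmp7). In whole tissue these values do not assign a gene to a cell type.

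**Figure D5:**
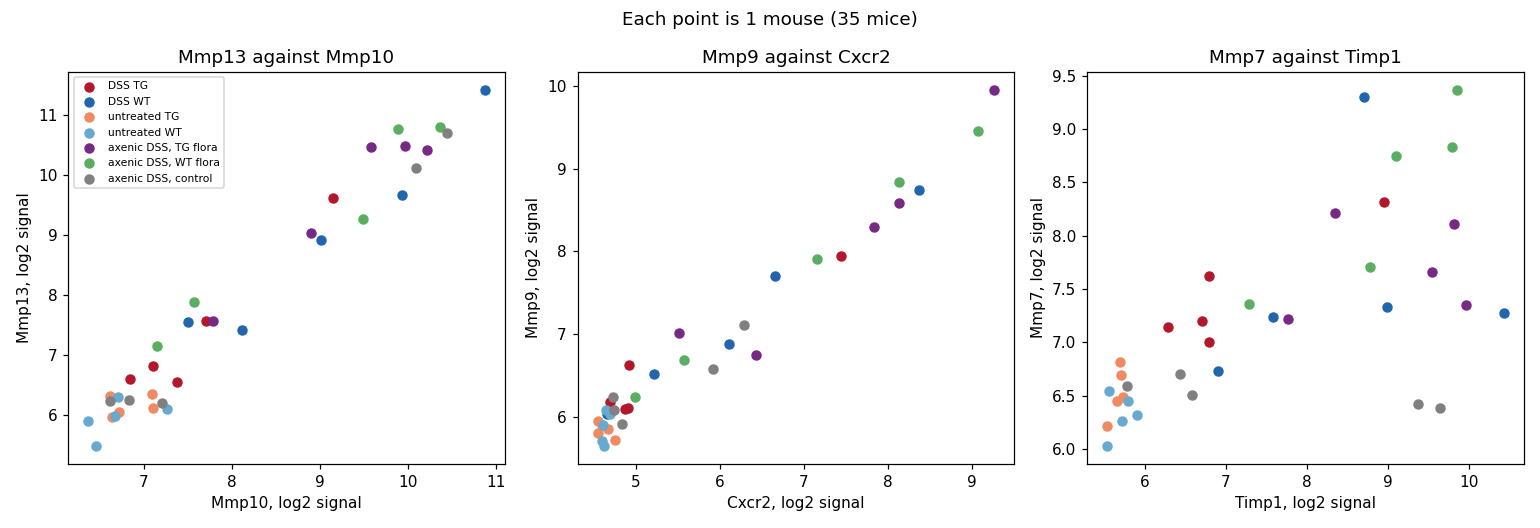
Log2 signal of 3 gene pairs with 1 point per mouse, coloured by group. Mmp13 follows Mmp10 and Mmp9 follows Cxcr2 across all groups, whereas Mmp7 is low in 2 axenic controls whose Timp1 signal is 9.38 and 9.64.

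Related genes placed these results in their pathway. Among 14 other metalloproteinases measured, 1 was called with DSS in TG mice, Mmp23 (0.46, adjusted p = 0.0440), and 1 in WT mice, Mmp28 (epilysin), which averaged 6.995 ± 0.17 in DSS WT and 6.32 ± 0.20 in untreated WT mice (0.68, SE 0.12, adjusted p = 0.0116). The median of the 14 was -0.02 with DSS in TG and 0.03 in WT mice, close to that of all genes. Within the chromosome 9 cluster, Mmp1b (-0.09), Mmp1a (-0.08), Mmp27 (0.00) and Mmp20 (-0.01) lay within 0.1 of 0 with DSS in WT mice, and Mmp8 differed by 1.93 without passing (adjusted p = 0.193).

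Mmp8, the collagenase stored in neutrophil granules, was called with both floras. It read 7.47, 8.64, 9.52, 9.70 and 11.46 with TG flora and 5.08, 5.42, 9.36, 9.48 and 10.85 with WT flora, against 5.07, 5.08, 5.09, 5.34 and 6.47 in axenic controls. With TG flora every recipient lay above every control (3.95, SE 0.60, adjusted p = 0.0193), whereas 2 mice with WT flora were at the level of controls (2.63, SE 1.01, adjusted p = 0.0369). Of the neutrophil markers 2 of 10 rose with TG flora, S100a8 by 4.05 and Retnlg by 3.59. With WT flora 4 of 10 rose and 1 fell, and 7 of the 14 other metalloproteinases were called, both below the share of all genes called in that comparison (67.3%). The other metalloproteinases called with WT flora were Mmp28 (0.66), which rose, and Mmp21, Mmp27, Mmp20, Mmp24 and Mmp1a, which fell by 0.20 to 0.45. The control means of those that fell ran from 5.08 (Mmp1a) to 6.72 (Mmp24), on arrays with medians of 6.65 to 6.95. In this comparison 35.2% of all genes were called lower and the array spread did not overlap.

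Of 5 other inhibitors, Timp4 fell with DSS in WT mice by 1.23 (SE 0.18, adjusted p = 0.00394), opposite to Timp1, and averaged 6.16 in DSS WT against 7.39 in untreated WT mice. Its difference with DSS in TG mice was -0.05 (adjusted p = 0.858), with means of 6.64 in DSS TG and 6.68 in untreated TG mice. In TG mice the membrane-anchored inhibitor Reck fell by 0.30 (adjusted p = 0.0427). Timp2 and Timp3 did not pass in either genotype, with values of -0.12 and -0.01 in TG and -0.31 and -0.31 in WT mice. In the plasminogen system, whose protease plasmin activates metalloproteinases, 1 of 8 rose with DSS in TG mice, the urokinase gene Plau (0.81), and 2 of 8 in WT mice, the urokinase receptor gene Plaur (0.98) and Plat (0.71). Of 14 ADAM and ADAMTS proteases 1 rose in TG mice (Adam15, 0.37) and 1 fell in WT mice (Adamts15, -0.58).

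Genes of matrix proteins, the substrates of these enzymes, also rose. Of 15 matrix genes 9 rose with DSS in TG mice, among them Sparc (1.23), Col1a1 (1.25), Col1a2 (1.09) and Col4a1 (0.53). In WT mice 7 of 15 rose, among them Sparc (1.29), Col3a1 (1.33), Col1a1 (1.36) and Tnc (1.85), which encodes tenascin C. The list median was 0.66 in both TG and WT mice. Cytokines and growth factors known to induce metalloproteinase genes rose in 1 of 14 with DSS in TG mice, Tgfb1 (0.69), and in 4 of 14 in WT mice, Il1b (3.87, SE 0.45, adjusted p = 0.00119), Tnf (1.03), Il1a (2.51) and Ereg (2.06). Genes of AP-1 and Ets factors were called by limma in 0 of 12 with DSS in either genotype. An unadjusted p under 0.05 was reached by 4 in TG and 3 in WT mice (26.2% and 16.6% of all genes), and the medians were 0.07 in TG and -0.10 in WT mice. With TG flora 0 of 12 were called (2 at an unadjusted p under 0.05), and with WT flora, where most genes were called, 8 of 12 rose and 1 fell. Of the 176 genes on all lists, the 9 included, 0 were called by limma between genotypes, between floras or for the interaction. An unadjusted p under 0.05 was reached by 21 between untreated genotypes, 19 between genotypes with DSS, 38 between floras and 20 for the interaction. These are 11.9%, 10.8%, 21.6% and 11.4% of the 176, against 5%, 5.17%, 34.4% and 7.42% of all genes in the same comparisons, so the share between floras lay below that of all genes.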

How the data were processed

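The authors deposited log2 signal normalized with RMA in Affymetrix Expression Console 1.1, per the submitters' processing notes. No array was dropped (35 in all), and unused value columns numbered 0. RMA subtracts a modelled background and compresses weak signals, so fold changes of dim probe sets can be understated. Mmp12 lay below the 40th percentile of mean signal. Quantile normalization took its WT flora difference from controls from -0.73 to -0.53, so its differences may be larger or smaller than shown. Of 28090 probe sets, 21639 had 1 gene symbol, and the probe set with the highest mean was kept for each of 19908 genes.

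Linear models with moderated variance (limma 3.58.1, R 4.3.3) were fitted to all genes on the arrays of each comparison, 7 of 2 groups, 1 interaction over 20 arrays and 1 F test over 7 groups. Tests were two-sided with Benjamini-Hochberg adjustment over all genes, with a call wherever the adjusted p was under 0.05. The precision is limited by 5 mice per group. Labels give mouse numbers but no batch, cage or sex. The scripts were tested on simulated data.

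The members and gene lists were chosen with earlier results of these data known. All members were named in each comparison, with up to 4 called genes of each pathway list, all called genes among other metalloproteinases, and the 3 genes most correlated with each member within groups, predicted genes skipped. Timp2, Timp3 and uncalled cluster genes were named after their values were seen. The alternatives comprised weights per array, a joint model of all arrays, quantile normalization, trended and robust variances, the mean of probe sets, a filter at the 40th percentile, covariates of distal Hox or smooth muscle markers, and leaving out each mouse. Correlations and figures used Python 3.11.15, numpy 2.4.6, pandas 2.3.3, scipy 1.17.1 and matplotlib 3.10.9. Gene positions and promoter windows are those of RefSeq for GRCm38.p6.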

Additional observations from a re-analysis of the deposited data

Results flagged for a closer look

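Over the 9 genes and 7 groups, 63 groups of 5 mice were examined, and in 5 of them 1 mouse lay far from the other 4, with a gap above 0.71 of the group's range. Chance gives about 1 in 20 groups if groups are independent. Here the same mice recur for all 9 genes, most of which go together within groups, so that rate cannot be set against the 5. In 4 of the 5 the mouse apart was mouse 49 of the DSS-treated transgenic group. This mouse read 8.95 for Timp1, against 6.29 to 6.80 in the other 4, 9.25 for Mmp3 against 5.68 to 6.54, 7.94 for Mmp9 against 6.09 to 6.62, and 6.56 for Mmp12 against 5.92 to 6.07. The other was Mmp7 in the DSS-treated wild-type group, where mouse 65 read 9.30 against 6.73 to 7.33. Mouse 65 was also the highest of its group for Mmp2 (11.46) and Mmp14 (9.17), but not for the other 6 genes.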

How the results depend on the processing

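Of 1378 alternative values of single genes, 1194 kept their direction and side of the threshold, 84 stayed uncalled but changed sign, 59 were no longer called, 41 became called and 0 called values changed sign. Called members of 9 were 4 for DSS in wild-type mice, and 7 with array weights, 0 with the distal Hox covariate and 1 with the smooth muscle covariate (1 to 6 leaving out a mouse). Over all genes 1022 were called there, 9 with the Hox and 310 with the smooth muscle covariate (424 to 1277). For DSS in transgenic mice 1 became 7 with array weights, 2 with quantile normalization, 3 above the 40th percentile, and 0 with the smooth muscle covariate or all 35 arrays (0 to 2). Over all genes 905 became 3266, 1123, 855, 522 and 600 in the same order (178 to 1668). In that comparison the Hox covariate exchanged Mmp7 (0.93, adjusted p = 0.0562) for Mmp2 (0.66, adjusted p = 0.0475). Between floras 0 became 1, Mmp12, with array weights or all 35 arrays (0 to 1). Over all genes 0 became 4886 with array weights and 1927 with all 35 arrays (0 to 4700). For wild-type flora against controls 4 became 7 with array weights and 2 with quantile normalization or the Hox covariate (2 to 6). Over all genes 13401 became 13990, 6637 and 9136 in the same order (11735 to 13465). For transgenic flora 1 became 6 with array weights, 0 with the Hox covariate and 2 with the smooth muscle covariate (0 to 3). Over all genes 67 became 6655, 19 and 7711 in the same order (27 to 5307). The F test called 9, and 5 with the Hox covariate (9 to 9), against 10791 and 11516 of all genes (8741 to 12592). Genotype comparisons and the interaction gave 0 throughout (0 to 0). The cause of these shifts was not tested. Array weights also raised the count over all genes, from 1022 to 5843 for DSS in wild-type mice. The filter gave no value for Mmp12. No paired analysis was possible because the groups compared share no mouse numbers.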
